A study of Drosophila melanogaster with 18 samples.

Results

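Histone H4 acetylated on lysine 8 (H4K8ac) was mapped by ChIP-seq in interphase and in mitotic Drosophila melanogaster embryos, and the regions called enriched at each stage were compared. The members are the peaks of the 2 deposited H4K8ac lists, with mitochondrial peaks left out: 5805 interphase and 5404 mitotic peaks, together 11209 of the 18020 nuclear peaks in the 4 stage lists of the series, the other lists being those of the transcription factor GAF. An interphase peak is called kept if it shares at least 1 bp with a mitotic peak and lost if it shares none, and a mitotic peak that shares none with an interphase peak is called gained. No measured signal entered this rule beyond the calling of the peaks.

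All 4 H4K8ac samples, 2 per stage, were whole wild type yw embryos with no transgene or treatment, about 1000 embryos in each sample, and each sample had its own input chromatin. The labels give a collection from 1 to 2.5 h after egg laying for both stages, and the paper's methods give a later start with the same end. Embryos were fixed, stained for histone H3 phosphorylated on serine 10, a mark of condensed mitotic chromosomes, sorted by this staining with a large-particle flow sorter and then sorted again by hand. The sort takes whole embryos, so that a sample mixes nuclei of all regions of the embryo, and the labels give no nuclear cycle, so that stage and age within the collection window cannot be told apart. Mitotic chromatin was sonicated for longer than interphase chromatin, so that stage and sonication cannot be told apart either. The authors called peaks once on the mean signal of both samples of a stage, hence each stage is a single list with no value per sample. No spread between replicates can be given, no test between the stages was possible, and the 95% Wilson intervals below cover counting error only. The lists hold positions alone, and the depth behind a peak is unknown.

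Acetylation of the tail of histone H4 loosens the packing of nucleosomes and is placed by histone acetyltransferases and read by bromodomain proteins at active promoters and enhancers. In the early fly embryo the nuclei divide quickly and in synchrony in a shared cytoplasm, and the zygotic genome is switched on progressively over these cycles, first at a small group of short genes and then broadly at cellularization. In each mitosis the chromosomes condense, transcription stops and many factors leave the DNA, and marks that stay on chromatin are candidates for carrying the active state through division.

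Early zygotic genes and genes of cellularization were marked more often than all genes at both stages, while other lists of embryonic patterning genes were mixed. The promoter of a gene was taken as the 100 bp on either side of any of its annotated starts. Of 42 early zygotic genes, 23 were marked in interphase and 34 in mitosis, and of 17 genes of cellularization 13 and 15. Of 22 genes of the Notch pathway, 16 and 20 were marked, of 9 pair-rule genes 4 and 6. The dorsal ectoderm list had 7 and 8 of 16 marked, and the gap list 3 and 5 of 9. None of 8 Hox genes was marked at either stage, 1 of 10 head genes and 4 of 14 segment polarity genes at each stage, 4 and 8 of 18 mesoderm genes, and 4 and 6 of 15 genes of the neurogenic ectoderm. Genes of tissues that the embryo does not yet have were seldom marked. None of 12 Y-linked testis genes was marked at either stage, 0 of 17 chorion and yolk genes in interphase and 1 in mitosis (Vm26Aa), 3 and 2 of 16 photoreceptor genes, 3 and 4 of 59 odorant receptor genes, 1 and 5 of 60 gustatory receptor genes, and 4 and 2 of 70 cuticle genes. The background over all 18277 annotated genes was 36.2% of promoters marked in interphase and 36.7% in mitosis.

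Most of the acetylated genome was the same at both stages, while many of the shortest peaks were found at 1 stage alone and the broad domains differed in reach. The peaks covered 9.16% of the nuclear genome in interphase and 9.44% in mitosis. Of the bases called, 9.42 Mb were called at both stages, which is 74.8% of the interphase and 72.6% of the mitotic bases. By peaks, 4295 interphase peaks were kept (74.0%, 72.8 to 75.1%), 1510 were lost (26.0%), and 1175 mitotic peaks were gained (21.7%, 20.7 to 22.9%). Broad domains of 10 kb or more numbered 196 in interphase and 241 in mitosis, and they held 23.3% and 31.7% of the covered bases. Mitotic chromatin therefore had fewer peaks and more of its covered bases in broad domains.

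Whether a peak was shared followed its length closely. Among interphase peaks of 100 to 150 bp, 24.8% overlapped a mitotic peak, against 82.6% at 450 to 600 bp, 93.8% at 2050 to 4000 bp and all 195 peaks longer than 10 kb. In the mitotic list the same classes gave 26.6%, 90.9%, 91.8% and all 239. No domain over 10 kb of either stage lacked a partner. Of the lost peaks 62.0% were at most 250 bp long, with a median of 200 bp, and of the gained peaks 63.7%, also with a median of 200 bp. The lists give no height, so a peak whose signal lay just under the threshold at the other stage cannot be told apart from one with no signal there. Some classes also turned on a border: 30 lost and 28 gained peaks abutted a peak of the other stage without sharing a base. The nearest peak of the other stage nevertheless lay at a median of 4550 bp from lost and 4750 bp from gained peaks, and within 1000 bp for only 11.7% and 14.0% of them.

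**Figure D1:**
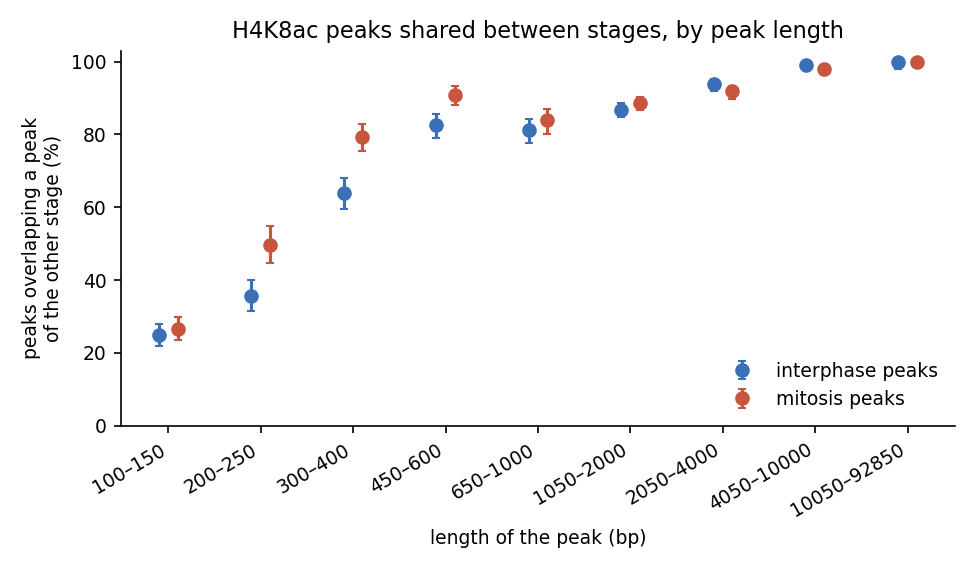
Share of H4K8ac peaks that overlapped a peak of the other stage (y axis, %) by length of the peak (x axis, bp), for interphase and mitotic peaks. Points are shares and bars 95% Wilson intervals, which cover counting error only. The share climbs from 24.8% of interphase and 26.6% of mitotic peaks of 100 to 150 bp to 100% of the peaks over 10 kb.

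The lost and the gained peaks lay in different kinds of sequence. Of the lost peaks, 61.9% had their centre in an exon (59.4 to 64.3%), against 25.1% of the gained peaks (22.7 to 27.7%) and 24.4% of the bases of the genome. Gained peaks were instead centred in introns (36.9%) and between genes (35.5%), where 22.4% and 13.8% of the lost peaks lay. Of the kept interphase peaks, 46.6% had their centre in an exon. Among peaks of at most 250 bp the share in exons was 44.0% of kept and 59.7% of lost interphase peaks, and 71.2% of kept and 29.5% of gained mitotic peaks. Few peaks of either unshared class touched a promoter, 10.1% of the lost and 9.87% of the gained, while 70.5% of the kept interphase peaks did. The classes differ in length, and among peaks of at most 250 bp the shares were 5.02% of the lost and 5.61% of the gained, against 14.6% of the kept interphase (11.4 to 18.5%) and 19.9% of the kept mitotic peaks (16.3 to 24.2%).

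Base composition differed in the same way. G and C made up 53.0% of the central 100 bp of lost peaks (SD 10.4 over 1510 peaks) and 43.1% of that of gained peaks (SD 10.9 over 1175 peaks), with 45.6% in kept interphase and 45.2% in kept mitotic peaks and 42.1% in the genome. The order held in every length class: at 100 to 150 bp lost peaks had 53.2% and gained peaks 45.1%, and from 2050 bp upwards 49.3% and 39.3%. Bases soft-masked as repeats were 9.79% of the lost and 20.2% of the gained centres. Among shared peaks of 100 to 150 bp, kept interphase peaks had 47.8% and kept mitotic peaks 53.7%. The yield of sequencing libraries also depends on G+C, and its part in these differences was not tested.

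To show what these peaks look like, 2 lost and 2 gained peaks of 100 bp are given in full, the first on chromosome 2L whose G+C equals the median of its class (54% of 298 lost and 43% of 279 gained peaks of this length on the chromosomes from which sequence was read) and that hold no masked base. Sequences are from the NCBI RefSeq genome of the same build (dm6), and capitals mark G and C.
lost peak in CG34126, chr2L:4984151-4984250, plus strand: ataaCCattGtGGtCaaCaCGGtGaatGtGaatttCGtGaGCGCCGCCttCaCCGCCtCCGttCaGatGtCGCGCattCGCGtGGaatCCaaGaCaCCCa
lost peak in DIP-epsilon, chr2L:6396201-6396300, plus strand: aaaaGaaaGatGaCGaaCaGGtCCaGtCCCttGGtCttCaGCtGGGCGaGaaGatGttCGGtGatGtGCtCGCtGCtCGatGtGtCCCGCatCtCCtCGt
gained peak in bchs, chr2L:5907201-5907300, plus strand: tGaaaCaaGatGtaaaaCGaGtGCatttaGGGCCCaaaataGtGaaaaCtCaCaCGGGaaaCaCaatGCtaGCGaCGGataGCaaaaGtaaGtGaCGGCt
gained peak in pdm2, chr2L:12679351-12679450, plus strand: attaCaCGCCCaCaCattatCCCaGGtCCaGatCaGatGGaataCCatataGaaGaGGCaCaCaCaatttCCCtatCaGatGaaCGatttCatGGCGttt
The lost peak in CG34126 lay 2300 bp from the nearest mitotic peak, and the gained peak at the start of bchs, which codes for a large protein of autophagic clearance, lay 2900 bp from the nearest interphase peak. The pdm2 peak lies in a gene for a POU-domain transcription factor of the nervous system.

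**Figure D2:**
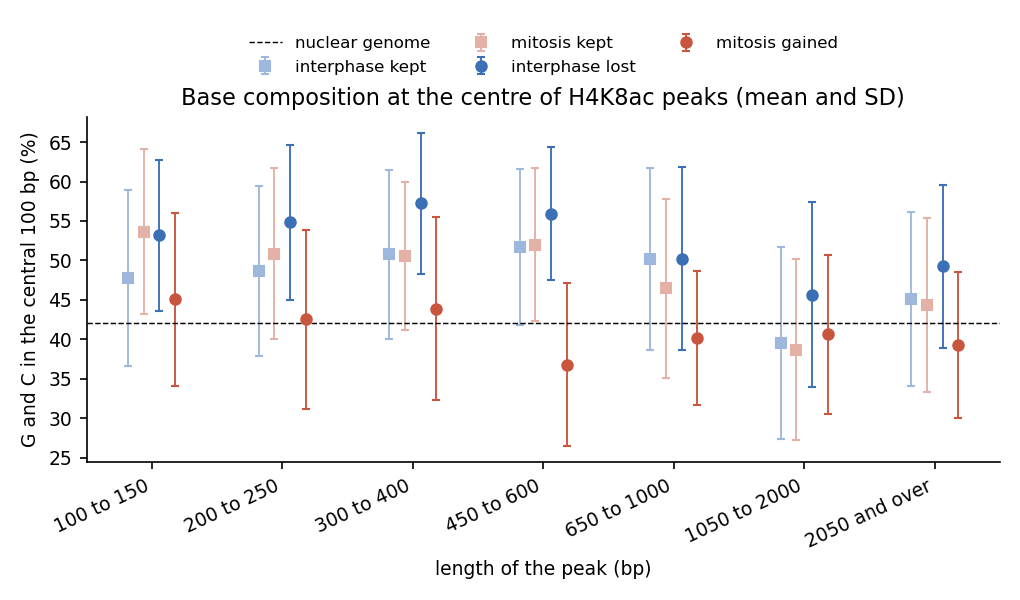
G and C in the central 100 bp of H4K8ac peaks (y axis, %) by length class of the peak (x axis, bp). Points are means over peaks and bars SDs, for kept and lost interphase peaks and kept and gained mitotic peaks, and the dashed line is the nuclear genome. Lost peaks have a higher mean than gained peaks in every class, from 53.2% against 45.1% in the shortest to 49.3% against 39.3% in the longest, with SDs that overlap.

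No lost or gained peak reached the 10 kb of a broad domain. The longest lost peak, 6000 bp on chromosome 2R, lay within lola, which codes for a family of BTB zinc finger proteins, and the next, 5400 bp, over a start of par-1, a kinase of cell polarity. The others were a 5150 bp peak in Dip-B, a 5000 bp peak on 3L, and a 4550 bp peak in CG18265. All 5 lay 3400 bp or more from the nearest mitotic peak. The longest gained peak, 8800 bp on 3L, had no annotated gene within 100 kb (transposable elements not counted), the nearest being CG42598 at 141945 bp, and its nearest interphase peak was 109850 bp away. The second, 5450 bp on 3L, was also intergenic, and the remaining 3 lay in CG9380, in aus and over a start of Eip75B, an ecdysone-induced nuclear receptor.

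Where a peak was shared by a single partner, the mitotic peak was more often the narrower, with changes in length from none to several kilobases. There were 3555 pairs of a single interphase with a single mitotic peak. In 1352 of them the mitotic peak was the wider, in 1992 the narrower (56.0%), and in 211 of equal length, of which 78 were identical. The median change was -50 bp and the mean -17.8 bp (SD 1312 over the pairs), and 41.6% of the pairs stayed within 200 bp. The mitotic peak was at least doubled in length in 435 pairs and at most 1/2 as long in 495. The tails were nearly balanced, with 448 pairs that gained at least 1000 bp and 484 that lost as much. In 422 pairs that held the starts of a single gene, the upstream border moved outward in 39.8% and inward in 36.3%, with a median shift of 0 bp, while the downstream border, toward the gene body, moved outward in 35.1% and inward in 53.8%, with a median of -50 bp, the width of a bin. The narrowing was thus seen mainly on the side of the gene body.

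The bases that differ between the stages came from other sources in the 2 directions. In all, 193 interphase peaks were split into 404 mitotic peaks, and 211 mitotic peaks each merged several of 489 interphase peaks. Merged peaks held 33.1% of the 3.56 Mb called in mitosis alone, more than the gained peaks with 18.9%, and one-to-one pairs held 43.0%. Of the 3.17 Mb called in interphase alone, one-to-one pairs held 50.3%, lost peaks 23.2% and split peaks 20.2%.

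The groups with the most pieces show both directions. On 3R a single interphase domain of 26050 bp over 11 gene starts, among them MED31, a subunit of the Mediator complex, and Karybeta3, an importin, was divided in mitosis into peaks of 7400, 6300, 1400 and 2000 bp. A 20850 bp domain on 2R with AIMP3, levy, pita and Rrp4 was divided into 3 peaks. A 15350 bp domain on 3L with ImpL1 and Poc1 likewise gave 3. In the other direction, 6 interphase peaks at robo2, a receptor of axon guidance, became a single mitotic domain of 49650 bp, and 5 peaks of 1600, 10100, 7100, 850 and 7150 bp at Tom, Brd and Ocho, small inhibitors of Neuralized in the Bearded family, became 34650 bp.

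Among one-to-one pairs, the largest losses of length were at a domain over Orc6, an origin recognition subunit, and the proteasome gene Prosalpha7 (10250 bp in interphase and 2650 bp in mitosis), at ND-ACP, msd1 and msd5 (10900 and 4750 bp), at dachs and CG13088 (6050 and 400 bp), at Tfb4, a subunit of TFIIH, and Vps29 (6750 and 1150 bp), and in Tig (5700 and 150 bp). In each of these 5 the mitotic peak was a remnant within or at an edge of the interphase domain. The largest gains, apart from the histone locus described further on, were at lncRNA:CR46006 (500 and 13150 bp), in 2 intergenic stretches of 3L (3200 and 11600 bp, 100 and 8400 bp), and at the insulin-like peptide genes Ilp1 to Ilp4 (10450 and 17550 bp).

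At promoters, retention was the rule. Of all 18277 genes, 5931 promoters were kept (32.5%), 677 were lost (3.70%), 775 were gained (4.24%) and 10894 were in no peak. Put by stage, 10.2% of the promoters marked in interphase were lost, and 6.64% of those not marked in interphase were gained. The 111 replication-dependent histone genes account for 105 of the gained promoters, and without them 670 were gained. These 670 rarely arose from new peaks: 51.0% lay in the mitotic peak of a one-to-one pair, 24.0% in a merged peak and 20.3% in a gained peak, and for 59.1% of them an interphase peak lay within 1000 bp of a start. Lost promoters were alike in this, with 54.8% in one-to-one pairs, 18.8% in split peaks and 23.6% in lost peaks, and a mitotic peak lay within 1000 bp of a start in 60.9% of them.

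The peak over a kept promoter was more often narrower in mitosis, in 3719 genes, than wider, in 1941 (32.7%). The lists are described here beside this background; no list was tested. Of 68 kept genes of the mitochondrial ribosome, 17 had the wider and 50 the narrower mitotic peak, and of 34 kept proteasome genes 8 and 24. The 95% intervals of both shares hold the background of 32.7% wider. Cytoplasmic ribosomal protein genes had 30 wider and 47 narrower among 83, cell cycle genes 12 and 14 among 27, Polycomb group genes 6 and 8 among 15, and genes of the acetylation machinery 11 and 9 among 21. Early zygotic genes had 18 wider and 3 narrower among 23, in 23 different pairs of peaks from 22 groups of overlapping peaks. The median length of the peak over these promoters was 6100 bp in interphase and 11550 bp in mitosis.

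**Figure D3:**
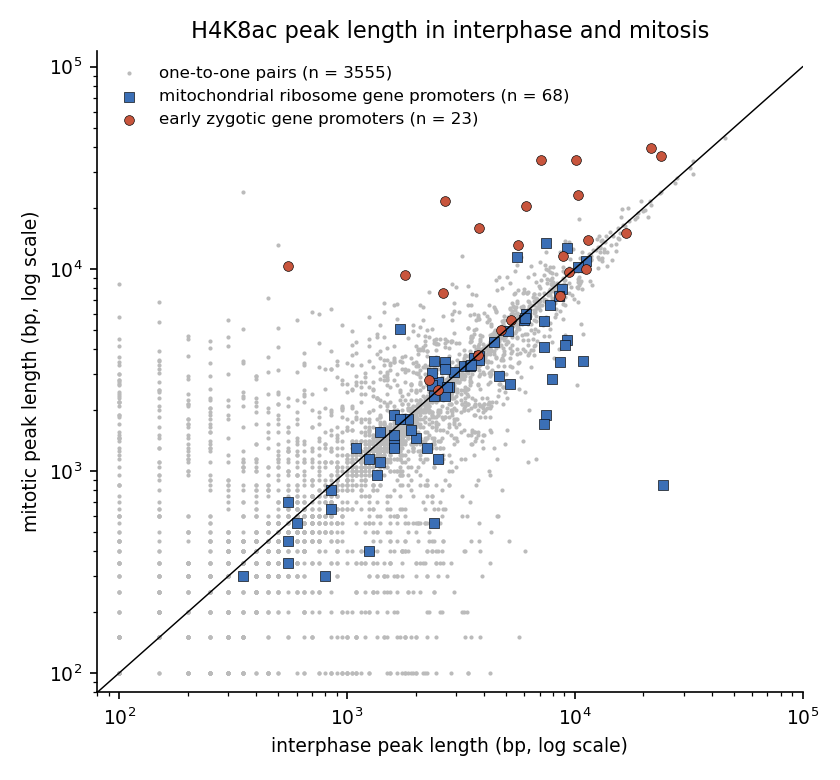
Length of the H4K8ac peak in interphase (x axis, bp, log scale) and mitosis (y axis, bp, log scale). Grey points are the 3555 one-to-one pairs, blue squares the longest peaks over 68 kept promoters of mitochondrial ribosome genes, and red circles those over 23 kept promoters of early zygotic genes; the line marks equal length. Of the red circles 18 lie above the line, and of the blue squares 17.

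The shares were also set out by length of the interphase peak. Among all kept genes the share in a wider mitotic peak was 31.3% where the interphase peak was 2050 to 5000 bp, 30.7% at 5050 to 10000 bp and 31.6% beyond 10 kb. Among early zygotic genes it was 5 of 7, 6 of 7 and 5 of 7. The mitotic peak was at least doubled in length at 10 of the 23 early zygotic promoters and at 8.30% of all kept promoters. These genes were chosen for the list with earlier results of these data known. The shares above do not account for merging. Of 34 early zygotic promoters in a mitotic peak, 17 lay in one that overlapped several interphase peaks. Interphase peaks covered a median of 74.1% of the mitotic peak. Of 224 mitotic peaks of at least 10000 bp with a promoter, 120 overlapped several, and the median covered was 79.97%. Over all 3211 mitotic peaks with a promoter these were 208 and 97.3%. Whether early zygotic peaks differ in this from other broad peaks was not tested.

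The largest increases in length at kept early zygotic promoters were at Ocho (7100 bp in interphase and 34650 bp in mitosis) and Tom (10100 and 34650 bp), which share a mitotic domain, at scyl (2700 and 21650 bp) and at E(spl)m4-BFM (21500 and 39800 bp). These interphase lengths are of the single peak over the promoter. With neighbouring peaks, interphase peaks covered 70.9% of the Tom and Ocho domain, 87.3% at scyl and 87.7% at E(spl)m4-BFM. Shorter interphase peaks were also found. At run, a pair-rule transcription factor, a 550 bp peak over the start in interphase corresponded to 10350 bp in mitosis, and at ftz, another pair-rule gene, 1800 bp to 9300 bp. At Z600 (also called frühstart), a short early gene whose product inhibits mitosis, 6100 bp corresponded to 20550 bp, a mitotic peak that spanned 3 interphase peaks. At sna, the repressor that sets mesoderm fate, the mitotic peak of 15950 bp spanned 4 interphase peaks, which covered 34.8% of it. Sry-alpha, needed for cellularization, went from 10300 to 23100 bp. Interphase peaks together covered 72.3% of the mitotic peak at Sry-alpha, 73.2% at Z600, 22.7% at run and 23.7% at ftz. The exceptions were few: tsg (8650 and 7300 bp), Bro (16800 and 14950 bp) and CG8960 (11200 and 9950 bp) had the narrower mitotic peak, and Sxl and scw had the same length at both stages.

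Of the early zygotic genes, 11 promoters were gained and none was lost. Unmarked genes were gained at 11 of 19, beside 6.64% of all unmarked genes. The longest of these mitotic peaks were at Brd (34650 bp), at the pair-rule gene eve (21900 bp), at the proneural gene sc, which also counts X chromosomes in sex determination (21800 bp), and at the gap gene kni (21550 bp). In interphase, sc had 2 peaks within the later domain, which covered 2.98% of it, and kni 3 peaks that covered 11.1%. At Kr, a gap gene, 600 bp of 17400 bp were covered in interphase. At eve, in contrast, 2 interphase peaks covered 74.7% of the mitotic domain and stopped 382 bp short of the start. The Brd start lay between an interphase peak that ended at 14971651 on 3L and one that began at 14973651. No neighbouring peaks of a list were closer than 2000 bp. Joining of nearby peaks was not tried for promoters, so its part in gained and wider promoter calls was not tested. The interphase peak nearest to the start lay from 179 bp (twi) to 2294 bp (sisA) away over the 11 genes, with a median of 556 bp. Hence in each of the 11 acetylation was already called within 2294 bp of the start in interphase and was called over or within 100 bp of the start in mitosis.

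The remaining 8 early zygotic genes, nullo, bnk, fd19B, gt, slp1, tll, hkb and btd, had no peak within 100 bp of a start at either stage. In all 8 the nearest mitotic peak was closer to the start than the nearest interphase peak, with medians of 723 and 1595.5 bp. Over all genes marked at neither stage the mitotic peak was closer in 35.6% and the interphase peak in 52.6%. At gt, a gap gene, the distance was 934 bp in mitosis and 8334 bp in interphase, and at tll, a terminal gap gene, 1865 and 11065 bp. Other differences were small, with 346 and 396 bp at hkb and 512 and 612 bp at bnk. At fd19B both peaks were remote, at 61893 and 67293 bp.

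**Figure D4:**
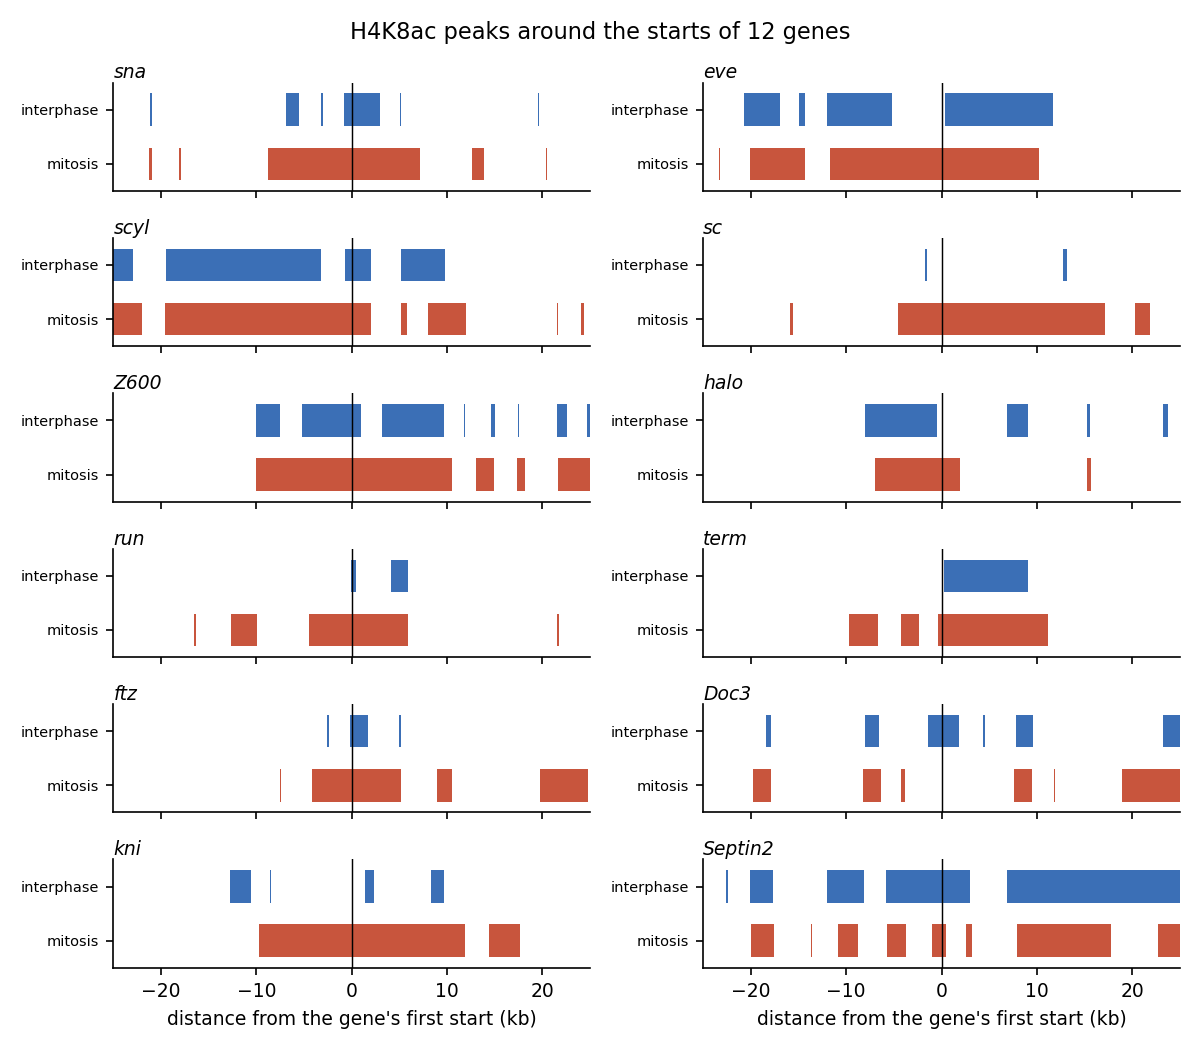
H4K8ac peaks in interphase (blue) and mitosis (red) from 25 kb before to 25 kb after the most upstream start of 12 genes (x axis, kb, in the direction of the gene; the black line is the start; each bar is a peak). At sna, scyl, Z600, run and ftz the mitotic domain over the start is the longer, at kni, sc, eve, halo and term it crosses a start that no interphase peak reaches, at Septin2 it is the shorter, and at Doc3 the interphase peak over the start has no mitotic counterpart.

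Windows of 300 bp around the most upstream start, from 250 bp before to 50 bp after it, are shown for 3 of the gained early zygotic promoters: sc and sisA, which of the windows examined held the most copies of CAGGTA, and kni, which held none. CAGGTA is the core of the sites bound by Zelda, the pioneer factor of zygotic genome activation, and GAGAG a site of GAF. Both were searched on both strands, so that they also appear as TACCTG and CTCTC; the motifs share no overlap in these windows except where runs of GAGAG overlap themselves. Capitals mark the motifs, and each sequence is read 5′ to 3′ along the gene from the RefSeq genome (dm6).
sc, chrX:395810-396109, plus strand: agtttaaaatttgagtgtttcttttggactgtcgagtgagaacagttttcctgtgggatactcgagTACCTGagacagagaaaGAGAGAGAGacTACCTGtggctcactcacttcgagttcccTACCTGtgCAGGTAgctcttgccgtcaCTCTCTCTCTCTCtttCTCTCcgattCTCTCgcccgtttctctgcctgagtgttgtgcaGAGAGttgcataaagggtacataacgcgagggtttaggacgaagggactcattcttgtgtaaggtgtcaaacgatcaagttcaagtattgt
sisA, chrX:11322308-11322607, minus strand: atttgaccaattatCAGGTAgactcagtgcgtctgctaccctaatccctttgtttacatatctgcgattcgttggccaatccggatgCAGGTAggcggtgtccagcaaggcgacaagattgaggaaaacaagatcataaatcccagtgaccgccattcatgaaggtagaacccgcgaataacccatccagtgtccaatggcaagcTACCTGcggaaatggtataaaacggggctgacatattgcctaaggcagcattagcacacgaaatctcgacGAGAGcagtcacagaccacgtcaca
kni, chr3L:20695329-20695628, minus strand: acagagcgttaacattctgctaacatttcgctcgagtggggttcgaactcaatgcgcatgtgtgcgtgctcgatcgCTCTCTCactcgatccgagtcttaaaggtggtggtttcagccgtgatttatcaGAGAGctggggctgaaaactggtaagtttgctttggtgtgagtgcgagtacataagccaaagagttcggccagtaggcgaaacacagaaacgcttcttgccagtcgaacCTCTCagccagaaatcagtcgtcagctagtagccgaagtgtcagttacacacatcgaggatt
The sc window held 4 copies of CAGGTA and the sisA window 3. Of the 42 early zygotic windows 22 held CAGGTA, 12 of 23 kept, 6 of 11 gained and 4 of 8 without a peak, against 6.40% of the windows of all genes. Within the list CAGGTA was found in 52.2% of kept and 54.5% of gained genes, and GAGAG in 11 of 23 kept, 8 of 11 gained and 6 of 8 genes without a peak. Over protein-coding genes without the histone genes, CAGGTA was found in 9.68% of gained promoters (7.31 to 12.7%), 6.90% of kept, 6.07% of lost and 5.65% of unmarked ones. GAGAG was found in 23.0% of kept, 29.8% of lost, 32.3% of gained and 34.1% of unmarked promoters. A match is a string of letters and not a bound site.

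Lists of patterning genes held gained and lost promoters in different numbers. The lists share members and are not separate counts. Among others, eve, ftz, run, hb, Kr, kni, twi, fog, zen and sc are also early zygotic genes. So are Tom, Brd, Ocho and E(spl)m4-BFM of the Notch list. The dorsal ectoderm list had 4 gained promoters and lost 3 of the 7 marked in interphase, the neurogenic ectoderm list had 4 gained and lost 2 of 4, the mesoderm list had 5 gained and lost 1 of 4, the head list had 1 of each, and the pair-rule and gap lists had 2 gained each and none lost, beside 10.2% lost of the promoters marked in interphase over all genes. Of 9 pair-rule genes 4 were kept, all 4 in a wider mitotic peak (medians 2050 and 9825 bp), and eve and opa were gained. One of the kept genes, hairy (hry), had 4800 bp in interphase and 23500 bp in mitosis. Of the 9 genes of the gap list, which also holds cad and bcd although these are not gap genes, 3 were kept. These were hb, cad and bcd, all in a wider peak, and Kr and kni were gained. The domain over bcd is the one that reached zen. In the mesoderm list 3 of 18 were kept, Mef2 was lost, and twi, esg, ths, stumps and fog were gained; ths codes for an FGF ligand and stumps for the adaptor of its receptor. In the dorsal ectoderm list zen, zen2, dpp, the BMP ligand of the embryo, and Doc1 were gained, and Doc3 and tup were among the lost. The nearest mitotic peak lay 3846 bp from a start of Doc3 but only 161 bp from one of tup. In the neurogenic ectoderm list l(1)sc, ac, sc and ths were gained and SoxN was among the lost. The gained promoters of sc and l(1)sc lie in the same mitotic peak.

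The head gene cnc lost its 1600 bp peak entirely, with no mitotic peak within 23540 bp of a start, whereas D, a Sox gene of the same list, gained a 39050 bp domain that joined 3 interphase peaks. All 8 Hox genes and 10 of 14 segment polarity genes, among them en, wg and hh, had no promoter peak at either stage. The marked segment polarity genes were ptc (22100 and 32600 bp), nkd (17950 and 20350 bp), ci and arm.

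Genes of the Notch pathway had 16 of 22 promoters kept, 15 of them in a wider mitotic peak, and 4 gained. These are few regions: 10 of the kept genes, E(spl)m4-BFM and its neighbours with gro, lie in a single mitotic domain of 39800 bp on 3R, and Tom, Brd and Ocho in another. Counted by pairs of peaks, 7 of 8 were wider, but some of these pairs share a mitotic peak and they form 6 groups of overlapping peaks. The pioneer factor gene zld was itself covered by 11600 bp in interphase and 32050 bp in mitosis, a domain that took in 5 interphase peaks, and Trl, which codes for GAF, by 5550 and 6800 bp. The 5 interphase peaks covered 70.0% of the zld domain.

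Cellularization genes were mixed, with 8 wider and 5 narrower among 13 kept promoters. The promoters of halo and nuf were gained, and Sry-alpha (above) and slam (4750 and 4950 bp) had the wider mitotic peak. The narrower ones included Septin1 (5300 and 800 bp), Septin2 (8800 and 1500 bp), zip, the heavy chain of myosin II (9100 and 6600 bp), and scra, or anillin (2350 and 1300 bp). The formin gene dia (3900 and 15850 bp), the septin gene pnut (16400 and 21850 bp) and sqh, the regulatory light chain of myosin II (1450 and 1500 bp), had the wider mitotic peak; the domain over dia also covers the start of cad.

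Class changes were few in the ribosomal, proteasome and cell cycle lists. Cytoplasmic ribosomal protein genes lost 3 of 86 promoters marked in interphase, and those of the mitochondrial ribosome 4 of 72. The proteasome list lost 1 of 35, the cell cycle list 1 of 28, the Polycomb group 2 of 17 and the heat shock list 1 of 11. Over all genes 10.2% were lost. Of 11 unmarked heat shock genes 3 were gained, all in 1 mitotic peak, beside 6.64% of all unmarked genes. RpS14a and RpS14b, which are near-identical neighbours, and RpL7-like lost and RpL7A gained a promoter peak. In the mitochondrial ribosome mRpS18B, mRpL50, mRpL3 and mRpL20 were lost and mRpL33 gained, in the proteasome Prosalpha1 was lost and the testis subunit Prosalpha4T1 gained, and in the cell cycle list CycB3 was lost. Of the Polycomb group, which was marked in full at 1 stage or both, esc and escl were lost and Su(z)2 gained. The nearest mitotic peak lay 105 bp from a start of esc and 127 bp from one of escl, just outside the 100 bp window. An interphase peak lay 150 bp from a start of Su(z)2. Among 24 genes of acetylation 21 were kept, and Nipped-A, a scaffold subunit of acetyltransferase complexes, was gained. In the heat shock list, none of the 6 Hsp70 genes, which are near-identical copies, was marked, Hsc70-3 was lost, and Hsp22, Hsp67Bc and CG4456 were gained as the domain over the small heat shock cluster, with Hsp23, Hsp26 and Hsp27, went from 10450 to 18700 bp. In interphase 2 peaks already covered 88.0% of this mitotic domain. The 6 marked genes of 16 for actins and tubulins were kept, alphaTub84D and alphaTub84B in the longest mitotic peaks (9150 and 8700 bp). Outside these, Or88a, Gr59a, Gr59b, Gr85a and Gr93d were gained and Cpr57A and Cpr23B were lost.

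**Figure D5:**
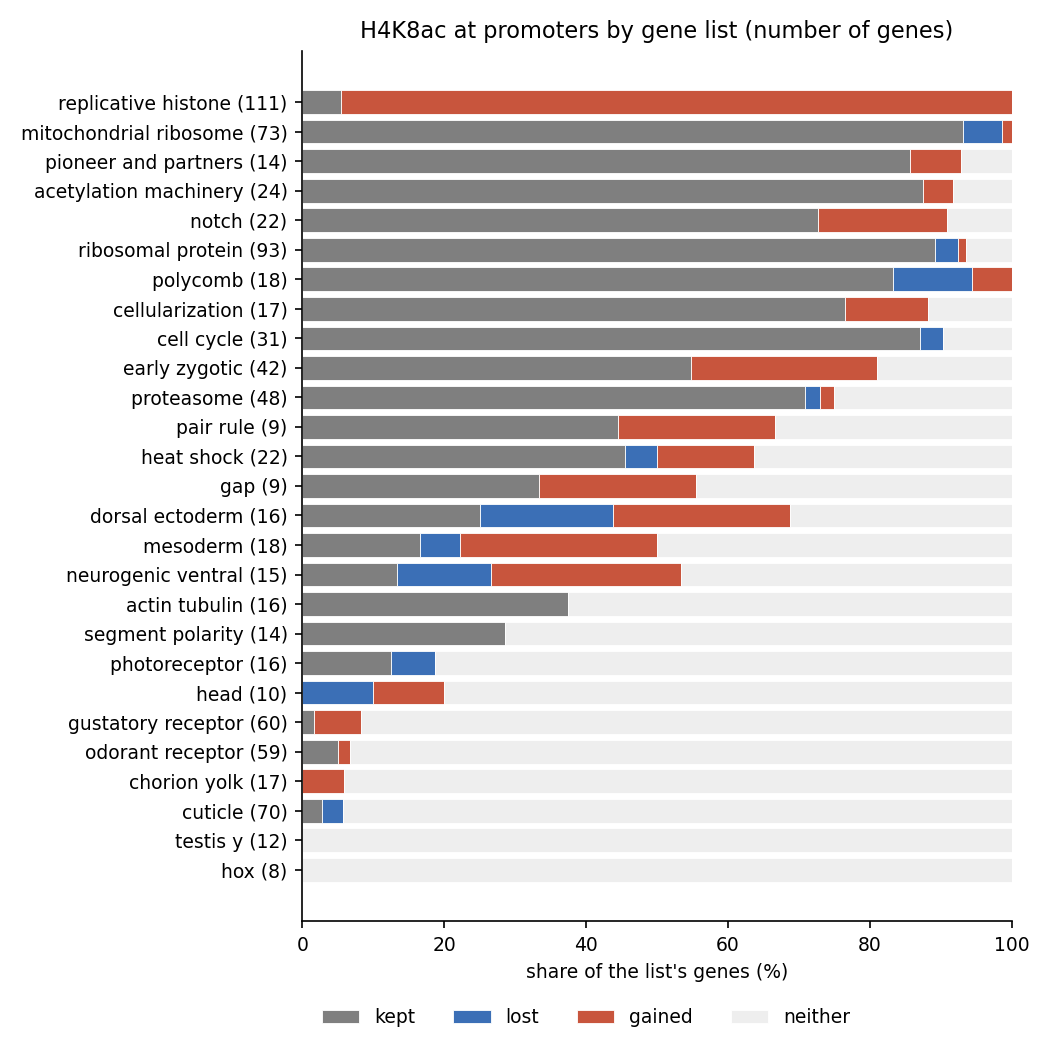
Promoters by class for the 27 gene lists: kept (H4K8ac peak at both stages), lost (interphase alone), gained (mitosis alone) and neither, as shares of the genes of each list (x axis, %), with the number of genes in brackets, ordered by the share marked in mitosis. Over all genes, 32.5% were kept, 3.70% lost and 4.24% gained; 11 of 42 early zygotic genes and 105 of 111 replication-dependent histone genes were gained.

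The replication-dependent histone genes formed the largest single change. The locus on 2L consists of tandem copies of a unit with the genes for H1, H2A, H2B, H3 and H4. In interphase, 5 peaks of 100 to 1700 bp lay in its longer block and a 350 bp peak in its shorter one, and 6 of 111 promoters were marked. In mitosis the blocks were covered by peaks of 92850 bp, the longest of the list, and 24050 bp, and all 111 were marked. The copies are near-identical, so that reads cannot be placed on one of them, the 111 genes are not separate measurements, and the number of copies in the genome build need not be that of the embryos. The result is therefore a difference of the signal over the repeat as a whole.

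Apart from chromosomes 4 and Y, the covered length differed little between the stages. Over 2L, 2R, 3L, 3R and X, the gained share of mitotic peaks ran from 18.1% on 3R (16.0 to 20.4%) to 24.6% on 3L (22.2 to 27.2%). The covered length in mitosis was 1.09 times that of interphase on 2L, 1.10 times on 3L, 0.979 times on 2R, 0.974 times on 3R and 1.00 times on X. On 2L the covered length was 2356000 bp in interphase and 2557350 bp in mitosis. The mitotic length there includes the 92850 and 24050 bp peaks of the histone repeat. On chromosome 4, which is largely heterochromatic, it was 1.43 times, and 33.0% of its 88 mitotic peaks were gained (24.0 to 43.3%). On Y, also heterochromatic, 19 of 32 mitotic peaks were gained, and all 32 together covered 17600 bp.

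GAF peaks lay more often in shared than in unshared H4K8ac peaks. A GAF peak of interphase overlapped 17.9% of kept and 4.30% of lost H4K8ac peaks, and a mitotic GAF peak 9.79% of mitotic peaks with a partner and 2.38% of gained ones. Longer peaks have more room for a GAF peak, and within every length class below 2050 bp the intervals of shared and unshared peaks overlapped, for interphase GAF in interphase peaks and mitotic GAF in mitotic peaks. At 1050 to 2000 bp the shares were 12.4% of kept and 9.62% of lost for interphase GAF, and 5.12% of shared and 4.65% of gained for mitotic GAF. Overlapping intervals do not show equal shares. Below 2050 bp interphase GAF was the more frequent in kept peaks in each class except 650 to 1000 bp (9.28% and 9.80%). At 300 to 400 bp it was found in 7.72% of kept and 2.98% of lost peaks. Mitotic GAF differed in both directions, with 0.976% and 1.41% at 100 to 150 bp and 4.85% and 2.82% at 650 to 1000 bp. Among interphase peaks of 2050 bp and over, an interphase GAF peak was found in 30.4% of the kept (28.3 to 32.6%) and 10.6% of the lost (5.23 to 20.3%). Among mitotic peaks of this length, a mitotic GAF peak was found in 19.5% of those with a partner (17.6 to 21.5%) and 10.6% of the gained (5.67 to 18.9%). Length is not matched in this open class, in which kept peaks reached 57900 bp and lost peaks 6000 bp, and mitotic peaks with a partner 92850 bp and gained peaks 8800 bp. GAF and H4K8ac came from separate samples.

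The genes singled out by the study showed each of these forms. The scyl start lay in a 2700 bp interphase peak, which in mitosis was part of a 21650 bp domain together with a neighbouring interphase peak of 16200 bp. At esg, a gene of the sna family, a 2750 bp interphase peak began inside the gene after its start, and the 11000 bp mitotic domain reached over the start from upstream. At chrb, the paralogue of scyl, the interphase peaks of 2100 and 2300 bp were both lost, and the gained mitotic peaks measured 150 and 1450 bp. The 1450 bp peak ended at 11492351 on 3L, the base at which the lost 2300 bp peak began, so that here the lost and the gained peak abut.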

How the data were processed

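Peak lists deposited for H4K8ac hold the chromosome, start and end of each peak in bp and nothing on its height or reads. The authors trimmed reads with Cutadapt 1.16 (quality 20, reads under 30 bp removed), mapped them to dm6 with Bowtie2, averaged enrichment in 50 bp bins, scaled it to sequencing depth, subtracted the input, took the mean of the 2 samples of a stage and called peaks at a threshold of 22. The methods state 50 bp as the shortest run and 200 bp as the widest gap, whereas the list names carry 30 and 2000, and no neighbouring peaks were closer than 2000 bp.

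Lists were compared with Python 3.11.15, NumPy 2.4.6 and pandas 2.3.3, and figures drawn with Matplotlib 3.10.9. Length is end minus start. Genes came from Ensembl release 115 on 7 nuclear chromosomes, and sequences from the RefSeq genome of the same build. Overlapping peaks were joined into groups, and shares carry 95% Wilson intervals. The functions were tested on simulated lists. Of 360 list entries 3 were not matched and 5 were matched by an older symbol. Members, lists and tests were chosen with earlier results of these data known. Genes were named by rule (genes the study names, the longest lost and gained peaks, the largest changes of length, the groups with the most pieces, and per list the promoters lost or gained, or, above 6 in a direction, the 4 with the longest peak); further genes were named after their values were seen. Alternatives changed the overlap, the shortest peak, the chromosomes, the joining of peaks and the promoter. No value per sample was used. Some genes that met these rules are not reported here.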

Additional observations from a re-analysis of the deposited data

How the results depend on the processing

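No paired analysis was possible because each stage is a single list pooled over its samples, and no replicate could be left out. Counts that stayed within 1.5 times the reported one under the alternatives made up 106 of 138. With 50% of the classed peak required to overlap, gained peaks numbered 1822; with a reciprocal overlap of 50%, 2672 interphase peaks were kept, 3133 lost and 2732 gained. With peaks of at least 400 bp, 786 were lost (18.9%) and 604 gained (15.4%). With peaks within 5000 bp joined, 2821 were kept, 780 lost and 643 gained, with 107 merged groups and 1313 narrowed pairs. Changes of at least 500 bp left 672 widened and 799 narrowed pairs, and changes of at least 25% left 843 and 1139. Narrowed pairs outnumbered widened ones in these last alternatives, with peaks of at least 400 bp, with peaks joined and without Y. Gene bodies covered at both stages numbered 7197, and 2343 where 50% of the body was required. With the start base alone, 1 early zygotic promoter was lost; under the other promoter choices none was, from 8 to 10 were gained, and 18 to 24 had the wider and 3 the narrower mitotic peak. Leaving out the histone genes, an alternative chosen after seeing the data, gave 670 gained promoters. The depth per sample is unknown, so how many short peaks differ by sampling alone was not tested.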
